A study of Rattus norvegicus with 12 samples.

Results

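AMPA receptors were examined through the transcripts of their 4 pore-forming subunits (Gria1, Gria2, Gria3 and Gria4), 3 transmembrane AMPA receptor regulatory proteins (Cacng2, Cacng3 and Cacng8) and 2 cornichon homologs (Cnih2 and Cnih3). Every non-control probe whose gene name in the array files was one of these 9 genes was taken, which gave 11 of the 30367 probes on the array. They stood for 8 of the 9 genes, among 26214 gene names on the array, since no probe carried the name Cnih3. The reference gene table lists Cnih3 both as a gene of its own and as a synonym of Cnih2, and the probe called Cnih2 here carries the accession of the Cnih2 entry. Prefrontal cortex was taken on postnatal day 15 from female Sprague-Dawley rats in 3 groups of 4 animals, and total RNA was hybridised to 6 Agilent 2-colour oligonucleotide arrays. Betamethasone with ketamine animals came from dams given 2 injections of betamethasone, a synthetic glucocorticoid, at 0.4 mg/kg each on gestational day 15, and received 35 mg/kg ketamine, a blocker of NMDA-type glutamate receptors, on postnatal day 14. Betamethasone animals had the same prenatal exposure and received saline on postnatal day 14. Control animals had saline at both times. The treatment protocol in the labels says that the postnatal injection went to rats with infantile spasms, but spasms and litter are not recorded for each sample, so it is not known which animals shared a dam. The comparisons address how prenatal corticosteroid exposure alters synaptic transcripts of the infant cortex, and how these stand after ketamine.

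AMPA receptors are tetramers that carry most fast excitatory transmission in the cortex. GluA2, the product of Gria2, makes a receptor nearly impermeable to calcium after its messenger is edited by an adenosine deaminase, and receptors without it let calcium through. Regulatory proteins of the Cacng family carry receptors to the synapse and slow their closing, and cornichons help them leave the endoplasmic reticulum and also slow their closing. In the cortex of young rodents the subunit mix changes as synapses mature.

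The values below are log2 intensities, in which the values of 1 probe can be compared between animals but not with those of another probe. Each probe is a 60-base oligonucleotide, and the sequences of those on which the results turn are given first, 5′ to 3′, as in the deposited array files. A Gria2 and a Gria3 probe are shown together because they were the pair most alike in sequence, and whether either also binds the other's transcript was not tested. Capitals mark the 36 bases that are the same in both at the best ungapped fit, an overlap of 50 bases. No other pair of the 11 probes shared more than 26 bases.
Gria2, brighter probe: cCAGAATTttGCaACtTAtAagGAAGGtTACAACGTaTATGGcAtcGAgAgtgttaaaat
Gria3, dimmer probe: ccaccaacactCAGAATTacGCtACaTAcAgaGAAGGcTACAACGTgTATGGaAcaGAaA

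The Gria4 probe for transcript variant 1 is shown because it had the smallest p of all members, and the Gria1, Cnih2 and Cacng8 probes because 1 or 2 animals set their group means.
Gria4, variant 1 probe: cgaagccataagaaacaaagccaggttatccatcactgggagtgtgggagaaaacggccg
Gria1: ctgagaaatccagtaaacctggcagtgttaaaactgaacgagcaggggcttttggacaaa
Cnih2: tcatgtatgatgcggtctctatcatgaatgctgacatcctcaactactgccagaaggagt
Cacng8: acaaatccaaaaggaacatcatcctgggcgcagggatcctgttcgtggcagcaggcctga

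On the rn4 build named in the file headers, the Gria2 probes lay on the minus strand of chromosome 2 (172269214 to 172269273 for the brighter, 172265169 to 172265228 for the dimmer). Both Gria3 probes lay on the minus strand of the X chromosome (3452571 to 3452630 for the brighter, 3459714 to 3459773 for the dimmer). The Gria4 probes lay on the minus strand of chromosome 8, at 957385 to 957444 for variant 1 and 1016916 to 1016975 for variant 3. The Cacng8 probe was placed over a span of 2733 bases on the minus strand of chromosome 1 (64069079 to 64071811). Cnih2 (207716546 to 207716605) and Cacng3 (181594005 to 181594064) were also on chromosome 1 and Cacng2 on chromosome 7 (115913454 to 115913513), and the Gria1 probe had no position in the file. An rn4 gene annotation was not used here, so exons and untranslated regions are not assigned.

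All 11 probes were well above background in 12 of 12 samples, and all 11 passed the filter on dim probes. Each array held 2 animals of 1 group, the odd replicate number in Cy3 and the even one in Cy5. Control arrays were alone on 1 slide, and the 4 other arrays shared the second slide, and in either comparison with control an effect of the slide cannot be told apart from one of the treatment. Between 71.4% and 81.5% of spots per sample were well above background, and no spot was saturated. The array of betamethasone with ketamine replicates 1 and 2 stood apart. Before normalization the interquartile range of its log2 signals was 1.46 and 1.99, against 2.51 to 4.46 on the other arrays, and areas of departing spots held 4.98% of it, against at most 1.19% elsewhere. Principal component 1 (43.0% of the variance) placed these 2 animals at 57.7 and 55.6 and the other 10 between −21.2 and −7.27. Control replicate 2 was lowest of the 12 samples by more than 0.5 in 2.59% of probes, against at most 0.197% for any other sample. Values without these samples stand beside many of the results below.

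The tissue carried 6 of the 7 listed neuronal markers (Rbfox3 had no probe) and all 5 listed interneuron markers among the probes kept. All 5 oligodendrocyte markers had a lower mean in both betamethasone groups than in control. Sums here and below are the log2 of intensities added over the markers of a class, so the brightest marker weighs most (Mbp for oligodendrocytes). The oligodendrocyte sum spanned 14.91 to 16.05 in betamethasone with ketamine, 14.32 to 15.60 in betamethasone and 15.27 to 16.38 in control. The 3 oligodendrocyte precursor markers were also all lower in both groups, 3 of 4 microglia markers were higher, and all 3 endothelium markers were higher. The 2 striatum and 2 blood markers kept were higher in both groups as well. The precursor, microglia, striatum and blood sums overlapped control in both groups. The endothelium sum spanned 12.57 to 13.04 in betamethasone with ketamine and 12.51 to 12.74 in betamethasone, against 11.51 to 12.50 in control, without overlap. The sum of 4 astrocyte markers spanned 15.79 to 16.19 in betamethasone with ketamine and 15.78 to 15.81 in betamethasone, against 15.92 to 16.22 in control. The sum of the 6 neuronal markers spanned 15.70 to 15.81, 15.24 to 15.70 (3 animals, 1 spot missing) and 15.67 to 15.83 in the same groups. Whether cell makeup has a part in any result below was not tested, and in bulk tissue fewer cells of a type cannot be told apart from less RNA per cell.

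No AMPA receptor probe passed the threshold in any of the 3 comparisons (limma, adjusted p under 0.05 over all 21523 probes fitted). After betamethasone 0 of 11 passed, where 0.158% of all probes did (0.0836% higher and 0.0743% lower), and the smallest adjusted p of a member was 0.192. At an unadjusted p under 0.05 the count was 3 of 11, beside 11.4% of all probes (5.34% higher and 6.03% lower). The values of the 4 animals did not overlap between betamethasone and control for 3 of 11 member probes (2 lower and 1 higher), beside 17.5% of all probes (8.86% lower and 8.65% higher). The 3 were both Gria3 probes and the variant 1 probe of Gria4. By the brightest probe of each gene, 3 of the 8 genes were higher after betamethasone and 5 lower, where 52.4% of all probes were higher. Their median log2 change was −0.01, and that of all probes was 0.01.

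**Figure D1:**
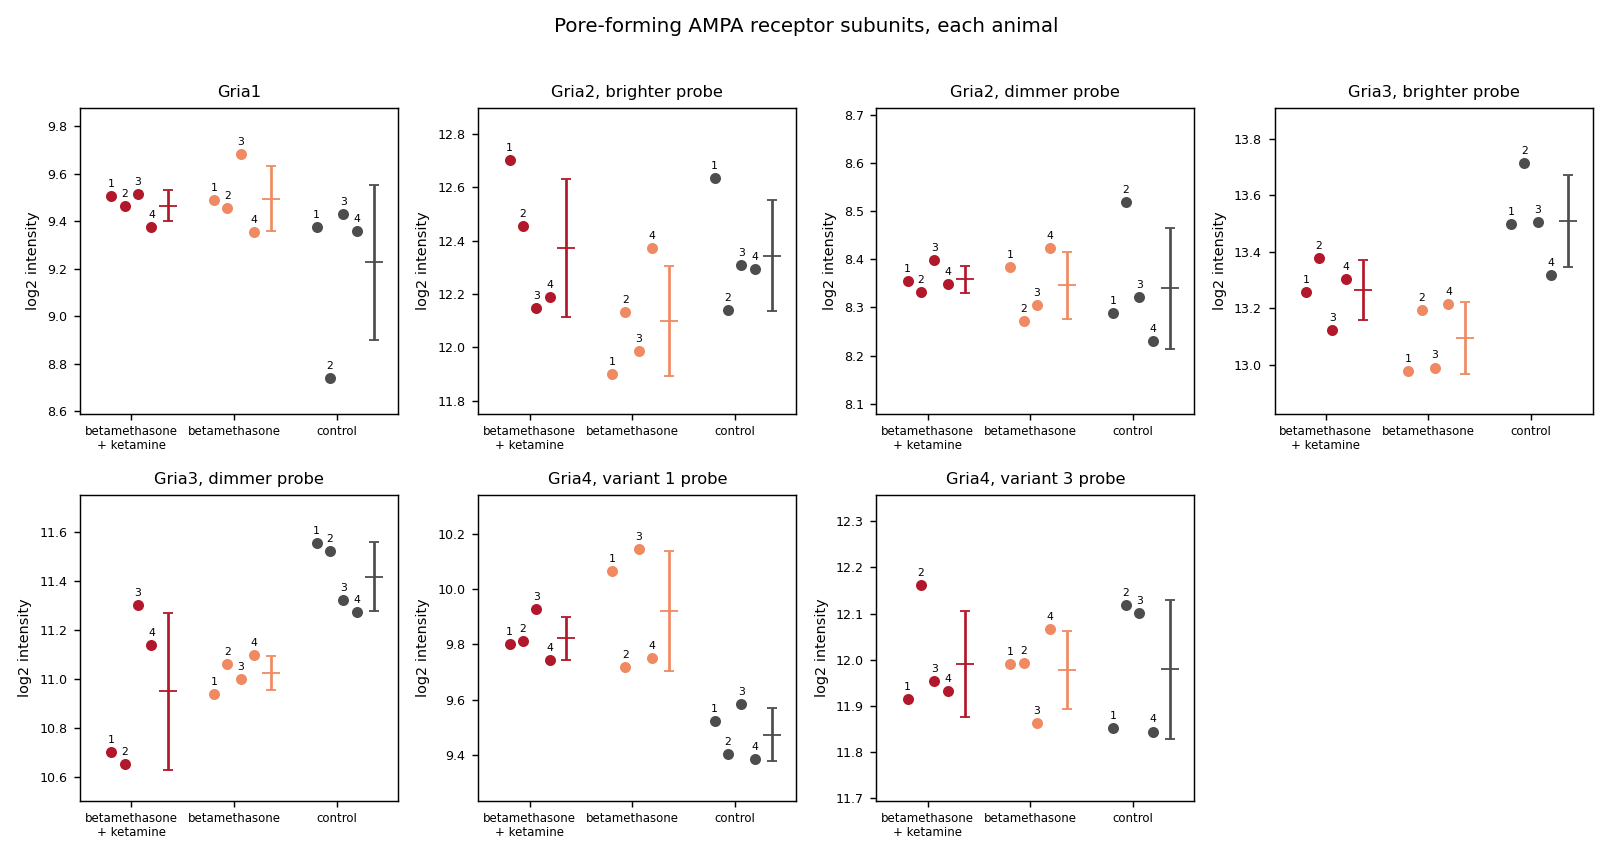
Log2 intensity (vertical axis, scaled per panel) of the 7 probes for Gria1 to Gria4 in each animal of the betamethasone with ketamine, betamethasone and control groups. Points are animals with their replicate number, and the bars beside them are mean ± SD of 4 animals. The betamethasone animals lie below all control animals for both Gria3 probes and above them for the variant 1 probe of Gria4, and control replicate 2 lies apart for Gria1.

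Gria3 encodes GluA3, which in cortical neurons pairs mainly with GluA2. Its brighter probe (A_43_P10280) read 12.98, 13.19, 12.99 and 13.21 in betamethasone animals, against 13.50, 13.71, 13.50 and 13.32 in control animals. Every betamethasone animal was below every control animal, and the log2 difference was −0.41 (SE 0.13, 95% interval −0.70 to −0.12, adjusted p = 0.266), a ratio of 0.750. Its dimmer probe (A_44_P449764) read 10.94, 11.06, 10.999 and 11.10 in betamethasone animals, against 11.55, 11.52, 11.32 and 11.27 in control animals. Here too no values overlapped, with a difference of −0.39 (SE 0.16, 95% interval −0.74 to −0.04, adjusted p = 0.392). The 2 probes gave nearly the same estimate, and the array files assign each of them to the same pair of Gria3 transcript variants. They are not independent samples, since the same 8 animals and the same slides stand behind both.

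As the Gria3 groups did not overlap, the sign within each dye was fixed, and only the size is informative. For the brighter probe the 2 betamethasone animals in Cy3 averaged 12.98 and the 2 control animals 13.50, a difference of −0.52. In Cy5 the means were 13.20 after betamethasone and 13.51 in control, a difference of −0.31. Without control replicate 4, its lowest control value, the brighter probe passed (log2 change −0.51, adjusted p = 0.0473). It also passed when the array was not taken as a block (adjusted p = 0.0286). Of the whole array 42 of 21696 and 1001 of 21523 probes passed in these settings, beside 34 of 21523 with all samples and the block. Over 25 alternative settings the adjusted p of the brighter probe ran between 0.0286 and 0.946. Its difference was below 0 in all 25, at −0.51 to −0.21. The dimmer probe was below 0 in all 25 as well (−0.42 to −0.33) and passed in none. Of these settings, 12 left out only 1 sample, which leaves groups without overlap in the same order.

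In betamethasone with ketamine animals the brighter Gria3 probe read 13.26, 13.38, 13.12 and 13.30, between the other groups in mean and overlapping both. The log2 change was −0.24 against control (SE 0.13, adjusted p = 0.441) and 0.17 against betamethasone (SE 0.13, adjusted p = 0.910). For the dimmer probe the readings were 10.71, 10.66, 11.30 and 11.14. Replicates 1 and 2, on the array that stood apart, were the lowest of all 12 samples, while replicates 3 and 4 lay above the highest betamethasone animal. With all 4 animals the change against control was −0.47 (SE 0.16, adjusted p = 0.314), and without replicates 1 and 2 it was −0.20 (adjusted p = 0.557). Against betamethasone it was −0.08 with all 4 animals and 0.19 without those 2. It was 0.24 with all animals when the scanner's processed signals were used, so its sign depends on that array and on the processing.

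Gria4 encodes GluA4, which in mature cortex is best known from fast-spiking interneurons. The 2 Gria4 probes gave different pictures. The variant 1 probe (A_44_P323349), which the array files also assign to a second transcript, read 10.07, 9.72, 10.15 and 9.75 in betamethasone animals, against 9.52, 9.40, 9.59 and 9.38 in control animals. The groups did not overlap, and the log2 change was 0.45 (SE 0.12, 95% interval 0.19 to 0.71, adjusted p = 0.192), a ratio of 1.36. The variant 3 probe (A_42_P736258) read 11.99, 11.99, 11.86 and 12.07 in betamethasone animals, against 11.85, 12.12, 12.10 and 11.84 in control animals. Its log2 change was 0.00 within rounding (SE 0.15, 95% interval −0.33 to 0.33). Whether the 2 probes differed in their change was not tested.

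The Cy3 animal had the higher variant 1 reading on 5 of 6 arrays. As betamethasone and control did not overlap, the sign within each dye was fixed, and only the size is informative. In Cy3 the means were 10.11 after betamethasone and 9.55 in control (difference 0.55), and in Cy5 they were 9.74 after betamethasone and 9.39 in control (difference 0.34). Betamethasone with ketamine animals read 9.80, 9.81, 9.93 and 9.74 on this probe, all above the 4 control animals and within the betamethasone range. Their change was 0.35 against control (SE 0.12, adjusted p = 0.312) and −0.10 against betamethasone (SE 0.12, adjusted p = 0.916). The betamethasone difference passed without ketamine replicates 1 and 2 in the fit (adjusted p = 0.0281) and with no array block (adjusted p = 0.0105). Its estimate was 0.45 in both, unchanged. Of the whole array 554 of 21697 and 1001 of 21523 probes passed in these settings, beside 34 of 21523 with all samples and the block. Over 25 alternatives the adjusted p of this difference ran between 0.0105 and 0.863, with the log2 change above 0 in all 25 (0.38 to 0.58). Of these, 12 left out only 1 sample, which leaves groups without overlap in the same order.

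The variant 3 probe of Gria4 was printed 10 times on every array, as was the Gria1 probe, which gives a measure of technical error. The SD over its usable spots within a sample was between 0.04 and 0.37, and each reading above is a mean over 8 to 10 spots. Ketamine replicate 2, at 12.16, was the highest of the 12 animals for this probe, and the other 3 ketamine animals read 11.92, 11.95 and 11.93. The change in betamethasone with ketamine was 0.01 against control and 0.01 against betamethasone (SE 0.15 each), and all 12 animals lay within 0.32 of each other.

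Gria2 encodes GluA2, the subunit that sets calcium permeability. Its brighter probe (A_64_P139295) read 11.90, 12.13, 11.99 and 12.37 in betamethasone animals, against 12.63, 12.14, 12.31 and 12.29 in control animals. The groups overlapped only through betamethasone replicate 4, and the log2 change was −0.25 (SE 0.24, 95% interval −0.77 to 0.27, adjusted p = 0.762). The dyes did not give the same picture, with a difference after betamethasone of −0.53 in Cy3 and 0.04 in Cy5. For ketamine against saline it was 0.48 in Cy3 and 0.07 in Cy5. In betamethasone with ketamine the readings were 12.70, 12.45, 12.15 and 12.19, with a change of 0.28 against betamethasone (SE 0.24, adjusted p = 0.910) and of 0.03 against control. Without ketamine replicates 1 and 2 the change against control was −0.18 and that against betamethasone 0.07.

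The dimmer Gria2 probe (A_64_P139290) varied least of the 11, with all 12 animals between 8.23 and 8.52. Its log2 change was 0.01 after betamethasone, 0.01 for ketamine against saline and 0.02 for betamethasone with ketamine against control (SE 0.11 each). With each channel scaled on its 75th percentile in place of Aquantile its change after betamethasone was −0.45, where the median of all probes moved to −0.22.

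Gria1 encodes GluA1, the subunit inserted at synapses during potentiation. It averaged 9.47 ± 0.06 in betamethasone with ketamine, 9.50 ± 0.14 in betamethasone and 9.23 ± 0.33 in control (SD, n = 4 each). Control animals read 9.38, 8.74, 9.43 and 9.36, so 3 of the 4 lay beside the other groups and replicate 2 was well below. The low value was not that of a single spot, since it was the mean of 10 spots with an SD of 0.17. The log2 change after betamethasone was 0.27 (SE 0.18, adjusted p = 0.622) with all animals and 0.13 without control replicate 2. Betamethasone with ketamine against control was 0.24 (adjusted p = 0.569) with all animals and 0.11 without it. Ketamine against saline was −0.03 (SE 0.18, 95% interval −0.43 to 0.37). This error uses a spread shared by all groups, the control SD of 0.33 included.

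The balance of Gria2 against the other pore subunits was taken within each animal, as the brightest Gria2 probe minus the mean of the brightest Gria1, Gria3 and Gria4 probes. Only its differences between groups have a meaning, since the level depends on the probes. The balance averaged 0.80 ± 0.24 in betamethasone with ketamine, 0.58 ± 0.18 in betamethasone and 0.77 ± 0.21 in control (SD, n = 4 each). Betamethasone with ketamine animals read 1.14, 0.79, 0.62 and 0.65, and betamethasone animals 0.42, 0.58, 0.48 and 0.83, against 1.06, 0.61, 0.63 and 0.79 in control animals. All groups overlapped, and ketamine replicate 1 was the highest of the 12. The difference of −0.20 after betamethasone and of 0.22 for ketamine against saline were each close in size to the SD within a group, and without ketamine replicates 1 and 2 the second was 0.059. No test was made of a score over chosen members.

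**Figure D2:**
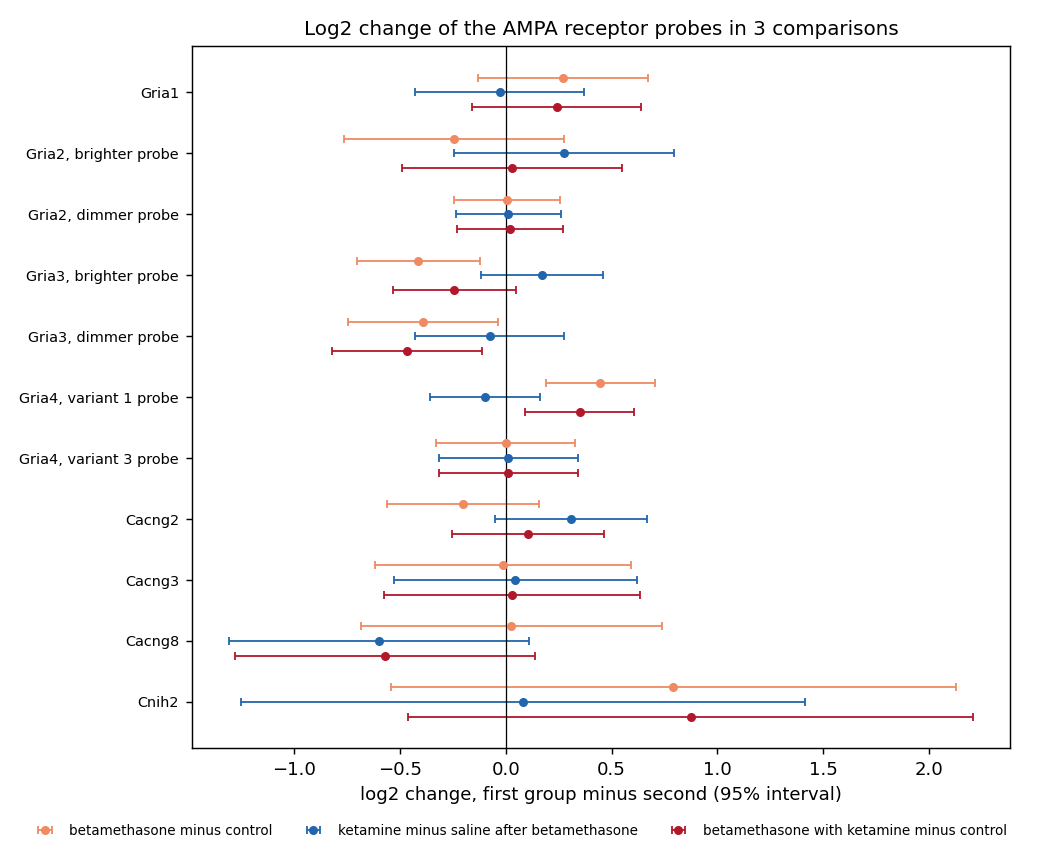
Log2 change (horizontal axis) of each of the 11 AMPA receptor probes in the comparisons of betamethasone with control, of ketamine with saline among betamethasone-exposed animals, and of both drugs with control. Points are estimates from the model with all 12 animals, and lines are 95% intervals without adjustment for the number of probes. The intervals of both Gria3 probes and of the variant 1 probe of Gria4 leave out 0 after betamethasone, while no ketamine against saline interval does.

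The auxiliary proteins were measured by 1 probe each. Cacng2 encodes stargazin, whose loss in the stargazer mouse removes functional AMPA receptors from cerebellar granule cells. It averaged 13.59 ± 0.25 in betamethasone with ketamine, 13.28 ± 0.21 in betamethasone and 13.48 ± 0.26 in control (SD, n = 4 each), with ranges of 13.35 to 13.89, 13.09 to 13.49 and 13.11 to 13.68. All 3 groups overlapped. The log2 change was −0.20 after betamethasone (SE 0.16, adjusted p = 0.693) and 0.31 for ketamine against saline (SE 0.16, adjusted p = 0.910). Without ketamine replicates 1 and 2, the highest of the 12 at 13.89 and 13.70, the ketamine difference was 0.10.

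Cacng3, a close relative expressed in forebrain, read 11.95, 11.98, 11.93 and 11.97 in betamethasone with ketamine and 11.93, 11.75, 11.93 and 12.06 in betamethasone. Control animals read 11.95, 11.29 and 12.28, with the spot of replicate 3 left out as an outlier spot. The treated animals lay within the spread of these 3. The log2 change was −0.01 after betamethasone (SE 0.27), 0.04 for ketamine against saline (SE 0.26) and 0.03 for betamethasone with ketamine against control (SE 0.27), where the fit drops the missing sample. The betamethasone difference moved to 0.30 without control replicate 4 and to −0.20 without control replicate 2, so its sign is not fixed by these data.

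Cacng8 encodes the regulatory protein best known from hippocampus and forebrain. Betamethasone with ketamine animals read 7.71, 7.72, 9.10 and 8.88, against 8.94, 8.97, 8.997 and 8.91 in betamethasone animals and 8.86, 8.51, 9.13 and 9.21 in control animals. Replicates 1 and 2 of the ketamine group were more than 1 log2 unit below the other 2. Their only Cacng8 spot lay in an area of departing spots on the array they shared. With all animals the change was −0.60 for ketamine against saline (SE 0.32, adjusted p = 0.910) and −0.57 against control (adjusted p = 0.455). With the spots of such areas left out, the changes were 0.04 and 0.07. After betamethasone alone it was 0.03 (SE 0.32, 95% interval −0.68 to 0.74). This error uses a spread shared by all groups, ketamine replicates 1 and 2 included.

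**Figure D3:**
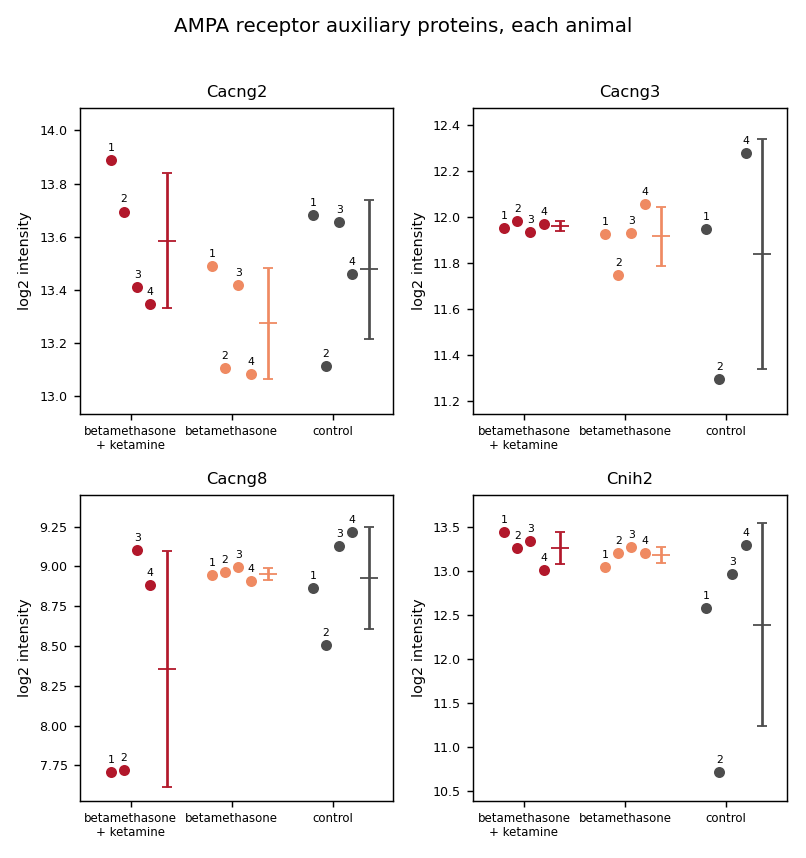
Log2 intensity (vertical axis, scaled per panel) of Cacng2, Cacng3, Cacng8 and Cnih2 in each animal of the betamethasone with ketamine, betamethasone and control groups. Points are animals with their replicate number, and bars are mean ± SD of 4 animals (3 for Cacng3 in control). Ketamine replicates 1 and 2 lie apart for Cacng8, and control replicate 2 lies lowest for Cnih2 and Cacng3.

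Cnih2 had the largest difference from control and also the largest error. It averaged 13.27 ± 0.18 in betamethasone with ketamine, 13.18 ± 0.09 in betamethasone and 12.39 ± 1.15 in control (SD, n = 4 each). The control readings were 12.58, 10.72, 12.97 and 13.30, of which the highest lay above all betamethasone animals. The log2 change was 0.79 after betamethasone (SE 0.60, 95% interval −0.54 to 2.13, adjusted p = 0.675) and 0.87 in betamethasone with ketamine against control (adjusted p = 0.539). Without control replicate 2 these were 0.29 and 0.37. Ketamine against saline was 0.08 (95% interval −1.25 to 1.42). This interval uses a spread shared by all groups, so the control SD of 1.15 widens it although control is not compared.

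In the ketamine comparison, which lay within 1 slide, 0 of 11 member probes passed (limma, smallest adjusted p 0.910), and 0% of all probes did. At an unadjusted p under 0.05 the counts were 0 of 11 members and 3.11% of all probes (1.87% higher and 1.25% lower). No member's groups failed to overlap, beside 4.07% of all probes (2.83% higher and 1.24% lower). Of the 8 genes, 6 were higher and 2 lower after ketamine, where 64.1% of all probes were higher. The median of the 8 was 0.06 on the log2 scale, beside 0.05 for all probes. Standard errors of the members ran between 0.11 and 0.60, and the narrowest 95% interval, that of the dimmer Gria2 probe, ran between −0.24 and 0.26.

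For betamethasone with ketamine against control, 0 of 11 passed (limma, smallest adjusted p 0.312), where 0.0697% of all probes did (0.0418% higher and 0.0279% lower). At an unadjusted p under 0.05 there were 2 of 11, the dimmer Gria3 probe and the variant 1 probe of Gria4, beside 13.2% of all probes (8.11% higher and 5.08% lower). The animals did not overlap for 1 of 11, the Gria4 probe, beside 14.9% of all probes (10.5% higher and 4.43% lower). This comparison and that of betamethasone against control share the 4 control animals, so their like values for Gria3 and Gria4 are not separate evidence. Of the 8 genes 6 were higher and 2 lower, where 61.3% of all probes were higher. The median over the 8 genes was 0.03 and that over all probes 0.06.

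Across the 12 animals some members varied together. Gria1 and Cnih2 had a Pearson correlation of 0.92 (n = 12), which was 0.41 without control replicate 2 (n = 11). Gria1 and Gria3 ran in opposite directions (−0.77 with all animals and −0.63 without that replicate). Gria2 and Gria3 had 0.45 with all animals and 0.72 without it. Cacng3 and Cnih2 had 0.84 (n = 11), which was 0.14 without it (n = 10). These are descriptions over samples that share arrays and slides. They pool the 3 groups, so differences between group means enter them. By these probes the mean of Gria1 was higher and that of Gria3 lower in both betamethasone groups than in control. Correlations within groups were not computed. Among 15566 named probes with all 12 values, those most like Gria1 were Acot3 (0.97), Ak3 (0.96) and Whrn (0.95), and among those most like Gria2 were Skic8 (0.95) and Srcap (0.95). For Gria3 they were Steap2 (0.97), Chd6 (0.96) and Bche (0.96), and for Gria4, by its variant 3 probe, Dync1i2 (0.75), Smg8 (0.74) and Acyp2 (0.74). These likenesses were computed only with control replicate 2 included, an animal that lay apart for Gria1.

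A list of 35 other genes that assemble, move, edit or anchor AMPA receptors was set beside the members. Of these, 33 had a probe and 31 were measured, by the brightest probe of each. No gene passed in any comparison, also when all 45 of their probes were counted. After betamethasone 8 genes were higher and 23 lower (median log2 change −0.14), for ketamine against saline 23 were higher and 8 lower (median 0.11), and for betamethasone with ketamine against control 15 were higher and 16 lower (median −0.02). Among all probes 52.4%, 64.1% and 61.3% were higher in these comparisons. The first 2 comparisons share the betamethasone animals, with opposite sign. Without ketamine replicates 1 and 2 the ketamine comparison had 22 genes higher and 9 lower (median 0.068), where 55.1% of all probes were higher. Without control replicate 2, 5 genes were higher and 26 lower after betamethasone (median −0.21), where 48.8% of all probes were higher. After betamethasone 7 of 8 further auxiliary subunits, 5 of 6 assembly genes, 7 of 10 trafficking genes, 4 of 5 clustering genes and 0 of 2 editing enzymes were lower. For ketamine against saline 7 of the 8 auxiliary subunits were higher (median 0.21), and 5 of 8 (median 0.090) without ketamine replicates 1 and 2. Probes of 1 gene could disagree: the 2 dimmer probes of Shisa7, another auxiliary subunit, differed by 0.17 and 0.35 after betamethasone (adjusted p = 0.665 and 0.406), while its brightest differed by −0.28. This gene was chosen after its values were seen. At an unadjusted p under 0.05 there were 1 higher and 3 lower after betamethasone, 1 higher after ketamine, and 1 higher and 4 lower in betamethasone with ketamine against control. Of 31 genes these were 4, 1 and 5, beside 11.4%, 3.11% and 13.2% of all probes.

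**Figure D4:**
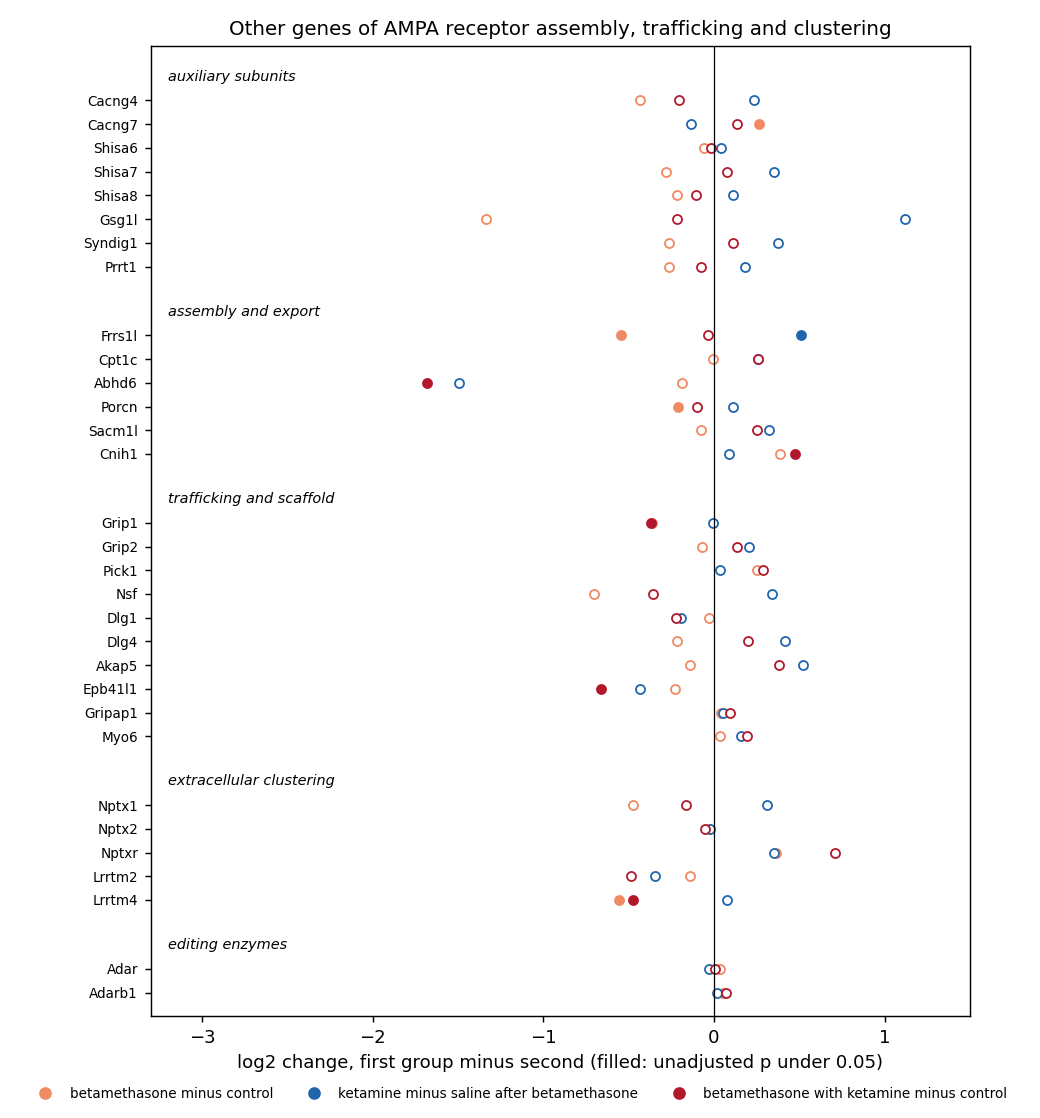
Log2 change (horizontal axis) of 31 other genes of AMPA receptor assembly, trafficking, clustering and editing in the 3 comparisons, grouped by role. Filled points have an unadjusted p under 0.05, and none passes after adjustment. The values lie between −1.68 (Abhd6) and 1.12 (Gsg1l), each set by 2 animals that share an array.

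Lrrtm4 encodes a postsynaptic adhesion protein that helps to hold AMPA receptors at synapses, and it had the smallest adjusted p of the list. Betamethasone with ketamine animals read 10.84, 11.09, 10.93 and 10.89, and betamethasone animals 10.97, 11.03, 10.65 and 10.79, against 11.34, 11.49, 11.49 and 11.34 in control animals. Neither treated group overlapped control, and the log2 change was −0.55 after betamethasone (SE 0.13, adjusted p = 0.140) and −0.47 in betamethasone with ketamine (SE 0.13, adjusted p = 0.237). It passed without ketamine replicates 1 and 2 (adjusted p = 0.0358 after betamethasone) and with no array block (adjusted p = 0.0120). Of the whole array 554 of 21697 and 1001 of 21523 probes passed after betamethasone in these settings, beside 34 of 21523 with all samples and the block. A second Lrrtm4 probe gave −0.09 and −0.06 (SE 0.12), so the probes of this gene disagree in size.

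Frrs1l encodes an endoplasmic reticulum protein needed for AMPA receptor assembly. It read 13.36, 13.48, 13.00 and 13.12 in betamethasone with ketamine and 12.59, 12.75, 12.60 and 12.97 in betamethasone, against 12.99, 13.41 and 13.73 in the 3 control animals with a usable spot. Betamethasone animals lay below both other groups without overlap. The log2 change was −0.55 after betamethasone (SE 0.21, adjusted p = 0.362) and 0.51 for ketamine against saline (SE 0.20, adjusted p = 0.910). Without ketamine replicates 1 and 2 the ketamine difference was 0.33. Without control replicate 2 the betamethasone difference was −0.84 (adjusted p = 0.128), against only control replicates 3 and 4, which share an array.

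Grip1, a scaffold that binds the tails of GluA2 and GluA3, differed from control by −0.36 after betamethasone (adjusted p = 0.443) and by −0.37 in betamethasone with ketamine (SE 0.17 each, adjusted p = 0.378), with no overlap in either. Its other 2 probes were also below 0, at −0.90 (SE 0.44) and −0.23 (SE 0.14) after betamethasone. Epb41l1, a cytoskeletal linker of GluA1, differed by −0.66 in betamethasone with ketamine against control (SE 0.25, adjusted p = 0.334), where replicates 1 and 2 read 12.29 and 12.47 and replicates 3 and 4 read 13.21 and 13.40. Without replicates 1 and 2 the difference was −0.20. Its second probe gave −0.52 after betamethasone (SE 0.16, adjusted p = 0.255) and −0.41 in betamethasone with ketamine.

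Cnih1, a cornichon of general cargo export, differed by 0.47 in betamethasone with ketamine (SE 0.19, adjusted p = 0.350) and by 0.39 after betamethasone, against 3 control animals of which replicate 2 was again the lowest (12.41, beside 13.11 and 13.04). Without that animal the differences were 0.19 and 0.10, against only control replicates 3 and 4, which share an array. Cacng7 differed by 0.27 after betamethasone (SE 0.11, adjusted p = 0.408), and Porcn, an acyltransferase found with AMPA receptors, by −0.21 (SE 0.09, adjusted p = 0.404). Abhd6, a lipase that limits AMPA receptor delivery, differed by −1.68 in betamethasone with ketamine against control (SE 0.71, adjusted p = 0.358). Its ketamine replicates 1 and 2 read 7.47 and 7.44 from a spot in an area of departing spots, and replicates 3 and 4 read 10.43 and 10.73, beside 10.15 to 11.10 in control. With that spot left out the difference was −0.12.

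Gsg1l, an auxiliary subunit that slows recovery from desensitisation, showed a split of the same kind on another array. Betamethasone animals read 10.50, 10.51, 7.34 and 8.08, and replicates 3 and 4, which share an array, were the lowest of the 12, although that spot was in no area of departing spots. The betamethasone change of −1.33 (SE 0.65, adjusted p = 0.472) rests on those 2 animals. Adarb1 encodes the adenosine deaminase that edits the Gria2 messenger. Its log2 change was 0.05 after betamethasone, 0.02 for ketamine against saline and 0.07 for betamethasone with ketamine against control (SE 0.15 each, 95% interval −0.27 to 0.37 for the first), and editing itself cannot be read from these probes.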

How the data were processed

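The deposited scanner files hold a mean and a median intensity per spot and channel with its local background, per the file headers, which name Feature Extraction 11.5.1.1 for the control slide and 11.0.1.1 for the other, while the submitters' processing notes name 10.7.3.1. A deposited value table holds a ratio per spot, scaled to a median of 1 in each column; its log, dye and between-array steps are not given in the sources used here, and its control columns are swapped against the scanner files (replicates 1 and 2 there hold 3 and 4 here), so it entered as an alternative setting. The processed signals, also intensity values per the file headers, were background-subtracted and dye-normalized, and served as another.

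Mean foreground was corrected with median local background by normexp (offset 50), normalized by loess within arrays (control spots at weight 0) and Aquantile between arrays, and each channel was taken as a sample. Outlier spots were left out and spots of 1 probe averaged. A probe stayed in when 3 or more of the 4 animals in any group were well above background (21760 of 30367), and the 21523 with at least 3 values per group were fitted. limma 3.58.1 (R 4.3.3, statmod 1.5.0) fitted group and dye with the array as a random block (correlation 0.558) over all 12 samples, and p-values were 2-sided and adjusted by Benjamini and Hochberg over all 21523 probes, with a threshold of 0.05. The number of arrays, 2 per group, limits the precision. The p-values rest on a spread shared by all groups, with the same array correlation for every probe. They mix the spread between arrays with that between animals of an array. A standard error in any comparison therefore takes in all groups. The procedure was tested on simulated data, whose outcome is not given here and on which no statement above rests.

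The members and lists were chosen with earlier results of these data known. All members are named, together with the other-list genes with an unadjusted p under 0.05 (at most 6 per comparison) plus Adarb1 and Gsg1l, and the 3 genes most like each Gria gene, of which 1 is not reported here. Alternatives changed the background correction, normalization, dim-probe filter, dye term, array and replicate blocks, samples and unit of replication, left out areas of departing spots (a share over 0.25 of the spots within 5 rows and columns departing by over 1 log2 unit from the median of the other arrays), took 1 probe per gene, or left out each sample.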

Additional observations from a re-analysis of the deposited data

Results flagged for a closer look

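Control replicate 2 read 8.74 for Gria1, apart from the other 3 control animals by more than the 95% critical value of Dixon's ratio for 4 samples. The same animal was also lowest in its group for Cnih2, Cacng2, Cacng3, Cacng8 and the brighter Gria2 probe, and highest for the brighter Gria3 probe, the dimmer Gria2 probe and the Gria4 variant 3 probe. For the variant 3 probe of Gria4, betamethasone with ketamine replicate 2 read 12.16, apart from the other 3 of its group by the same criterion, within a spread of 0.32 over all 12 animals. These were 2 of 32 groups of 4 tested, and chance alone flags about 1 in 20.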

How the results depend on the processing

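Over 26 alternative settings (12 of them leaving out 1 sample), 819 member probe values were recomputed, of which 78 had the opposite sign and 5 passed; none of the 78 passed in either setting, and 6 of the 248 whose size was over 0.3 were among them. Replicate numbers were shared between groups but did not pair the samples (0 of 12 same-number correlations over 0.1, −0.14 to 0.04). With the replicate block, 13 probes of the array passed in betamethasone against control and 7 in betamethasone with ketamine against control, beside 34 and 15 without it, 0 in the ketamine comparison, and Cacng3 was 0.021 in the first. Unless a sentence says otherwise, the cause of a difference was not tested.

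Probes of the whole array passing in betamethasone against control, ketamine against saline, and betamethasone with ketamine against control numbered 101, 4 and 75 with the processed signals (73.3% of the 75 higher, beside 60% of 15), 74, 1 and 29 with no filter on dim probes, 1001, 1 and 717 with no array block, and 554, 31 and 112 without ketamine replicates 1 and 2 (40.3% of the 554 higher, beside 52.9% of 34). For the first and last of these comparisons they numbered 3 and 2 on array means, where fewer samples entered. They numbered 77 and 24 with areas of departing spots left out, and 231 and 2 with only the compared groups. With loess and 75th percentile scaling they numbered 0 and 0 (limma, 240 and 146 at an unadjusted p under 0.05). There the medians of all probes were −0.22, 0.35 and 0.17 in the 3 comparisons. The value table gave 14 in betamethasone against control (35.7% higher), over 14972 probes. AMPA receptor probes passing numbered 2 in betamethasone against control and 1 in betamethasone with ketamine against control with no array block, and 1 in betamethasone against control without ketamine replicates 1 and 2; probes of the other list numbered 1 in each of these cases.

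In betamethasone against control, the sign turned for the dimmer Gria2 probe with processed signals (−0.056), single-channel quantile normalization (−0.00750), 75th percentile scaling (−0.45) and the value table (−0.092), and for the Gria4 variant 3 probe in the same 4 settings (0.000949, 0.00351, 0.12 and 0.080). Cacng3 turned with 75th percentile scaling (0.051), the value table (0.77), no dye term (0.014), no array block (0.069), only the compared groups (0.022) and without ketamine replicates 1 and 2 (0.025). With 75th percentile scaling Cacng2 was 0.011 and Cacng8 −0.19.

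In ketamine against saline, 75th percentile scaling turned Cacng3 (−0.048), Cacng8 (0.22), Cnih2 (−0.064), Gria1 (0.19) and Gria4 variant 3 (−0.088) and variant 1 (0.037). Processed signals turned the dimmer Gria3 probe (0.24) and Gria4 variant 3 (−0.022). The value table turned the dimmer Gria2 probe (−0.00292) and Gria4 variant 3 (−0.047). Cacng8 was 0.040 without ketamine replicates 1 and 2, and the same with areas of departing spots left out. Without those 2 animals Cnih2 was −0.00631, the dimmer Gria3 probe 0.19 and Gria4 variant 3 −0.036.

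In betamethasone with ketamine against control, Cacng8 was 0.067 with areas of departing spots left out. It was 0.067 without ketamine replicates 1 and 2 and 0.030 with 75th percentile scaling. Gria4 variant 3 was −0.021 with processed signals, −0.020 with areas of departing spots left out and −0.037 without those 2 animals. Cacng2 was −0.073 with processed signals and −0.099 without those animals, the brighter Gria2 probe −0.18 without them, the dimmer Gria2 probe −0.095 with the value table, and Cacng3 −0.00115 with only the compared groups.

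Leaving out 1 sample at a time gave 3 to 63 probes passing in betamethasone against control and 3 to 21 in betamethasone with ketamine against control, and 0 to 1 AMPA receptor probes in the first, the brighter Gria3 probe without control replicate 4. Both array counts moved by over 1.5 times without any 1 of the 4 betamethasone animals (3 to 6 probes) or without control replicate 1 (8 and 5) or 3 (6 and 4), the first also without ketamine replicate 1 (63) and the second without ketamine replicate 2 (4). The median of the 8 genes for ketamine ran between 0.012 and 0.14. In betamethasone against control Cacng3 ran between −0.20 and 0.30, Cacng8 −0.076 and 0.11, the dimmer Gria2 probe −0.046 and 0.072, and Gria4 variant 3 −0.085 and 0.085. In ketamine against saline Cacng3 ran between −0.00633 and 0.12, Cnih2 −0.052 and 0.20, Gria1 −0.078 and 0.015, the dimmer Gria2 probe −0.022 and 0.042, and Gria4 variant 3 −0.039 and 0.046. In betamethasone with ketamine against control Cacng3 ran between −0.15 and 0.34, the dimmer Gria2 probe −0.034 and 0.084, the brighter one −0.089 and 0.16, and Gria4 variant 3 −0.073 and 0.098.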
